A study of Homo sapiens with 31 samples.

Results

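CTBP2 sites without EVI1 that were lost when 4xPLDLS was expressed were examined in MUTZ3 cells. The sites were merged CTBP2 intervals called as peaks in both CTBP2 libraries of untreated inducible 4xPLDLS cells. They overlapped by 1 bp or more no peak of the 4 EVI1 libraries of the same cells, no peak of the EVI1 library of unmodified MUTZ3 cells, and no peak of the 2 CTBP2 libraries of dox-treated cells. Of 37227 CTBP2 sites of untreated cells, 1527 met this rule and are called EVI1-free lost sites here. The sites were chosen by peak calls in these 9 CTBP2 and EVI1 lists, so the loss with dox and the lack of EVI1 are given as a description with no test.

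MUTZ3 is a human acute myelomonocytic leukaemia cell line in which EVI1 is activated. The inducible cells carried pCW-4xPLDLS and were taken at 72 hours, either untreated or with dox, in 2 libraries for each target and treatment, all crosslinked with DSG and formaldehyde. The untreated cells carried the construct too, and all libraries of a treatment share 1 input. CTBP2 was also mapped in unmodified MUTZ3 cells (1 library, single crosslink), in untreated MOLM1 cells with a dox-inducible short hairpin against EVI1 (1 library, labelled as chronic myeloid leukemia in blast crisis), and in MUTZ3 cells with the p50MX 4xPLASS construct (2 libraries). These last 4 libraries had no part in choosing the sites. The labels give double crosslinking with DSG for the MOLM1 and 4xPLASS libraries, whereas the study's supplement lists a single crosslink for them. No source states that replicates came from separate cultures, so the spread between them may be technical, and the peak lists hold no read counts, so depth is unknown.

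CTBP2 is a corepressor that does not bind a DNA sequence by itself. It is brought to chromatin by DNA-binding proteins that carry a short PXDLS-type motif, and it recruits histone deacetylases, histone methyltransferases and the demethylase LSD1. EVI1 (MECOM) holds such a motif, PLDLS. ZEB1, ZEB2, KLF3 and Ikaros (IKZF1) are further DNA-binding proteins known to recruit CTBP. The 4xPLDLS construct repeats the EVI1 motif and competes for the CTBP2 cleft, and 4xPLASS is its mutated control.

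To show what the sites look like, the GRCh37 plus strand is given for the CTBP2 summit of untreated replicate 1 and 50 bp on each side of it, with capitals marking the E-box hexamer CACCTG or its reverse complement CAGGTG. The first 4 sites are the strongest outside UTRs, ranked by the lower of both untreated fold enrichments (the authors' signal over local background). The last 2 had a CTBP2 peak in all 4 libraries that the rule did not use.
DAB1, chr1:58856791-58856891, intron of DAB1: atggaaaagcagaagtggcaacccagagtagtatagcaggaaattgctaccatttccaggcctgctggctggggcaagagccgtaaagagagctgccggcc
CYTH4, chr22:37693712-37693812, intron of CYTH4: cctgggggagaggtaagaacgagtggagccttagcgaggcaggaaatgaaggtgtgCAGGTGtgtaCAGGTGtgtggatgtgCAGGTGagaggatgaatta
PDIA4, chr7:148659915-148660015, intergenic: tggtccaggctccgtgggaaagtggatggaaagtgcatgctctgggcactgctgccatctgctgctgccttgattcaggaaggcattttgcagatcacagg
ADCK2, chr7:140353240-140353340, intron of DENND2A: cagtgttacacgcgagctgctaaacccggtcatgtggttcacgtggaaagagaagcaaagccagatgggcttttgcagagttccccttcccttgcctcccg
TXLNB, chr6:139617192-139617292, intergenic: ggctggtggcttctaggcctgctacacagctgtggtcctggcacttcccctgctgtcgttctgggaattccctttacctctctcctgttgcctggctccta
TTLL2, chr6:167752180-167752280, coding exon of TTLL2: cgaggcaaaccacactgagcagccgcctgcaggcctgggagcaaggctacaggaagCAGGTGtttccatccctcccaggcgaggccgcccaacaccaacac
Sites are named by the protein-coding gene with the nearest transcription start site (TSS), which need not be the gene that a site acts on. The window at CYTH4 held 3 copies of the hexamer and the window at TTLL2 held 1, while those at DAB1, PDIA4, ADCK2 and TXLNB held 0.

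The EVI1-free condition was met by few CTBP2 sites, and most of those that met it had no peak with dox. Only 1774 of the 37227 sites (4.77%) overlapped no EVI1 peak in any of the 5 lists. Of these, 1527 (86.1%) had no CTBP2 peak in either dox library, 178 had a peak in 1 of both dox libraries and 69 had a peak in both. Among all CTBP2 sites of untreated cells 41.0% had no dox peak, and among the 30643 sites with an EVI1 peak in both untreated EVI1 libraries the share was 34.0%. The dox CTBP2 lists were shorter, with 24588 and 23878 peaks against 62232 and 56526 in untreated replicates 1 and 2. With the 8 inducible lists cut to equal size, the share without a dox peak was 49.8% of EVI1-free sites and 16.4% of all sites. In each dox library alone, 8.91% of the EVI1-free sites still had a CTBP2 peak, against 57.8% and 52.5% of the EVI1-bound sites in dox replicates 1 and 2. The number of EVI1-free lost sites rested on both untreated libraries and on the second EVI1 replicates. It was 8678 without untreated CTBP2 replicate 1, 11031 without untreated CTBP2 replicate 2 and 3029 without the EVI1 replicates numbered 2.

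These were weak CTBP2 sites. The median fold enrichment was 5.12 in untreated replicate 1 and 4.64 in untreated replicate 2, against 8.06 and 6.28 over all sites and 7.04 and 5.09 over the 10429 EVI1-bound lost sites (an EVI1 peak in both untreated EVI1 libraries, no dox CTBP2 peak). Their median rank was 39800 of 62232 peaks in replicate 1 and 38623 of 56526 in replicate 2, and the best ranks were 7637 and 3796. The sites were narrow as well, with a median width of 381 bp against 712 bp over all sites. When all 37227 sites were divided into 5 groups of equal size by fold enrichment in replicate 1, the strongest group held 0 of the EVI1-free lost sites, the following groups held 34, 143 and 453, and the weakest held 897 (58.7%). At like strength, EVI1-free sites had fewer dox peaks than EVI1-bound sites in the 4 weaker groups. In the strongest group, dox replicate 1 had the other order, with a peak on all 11 EVI1-free sites and 90.3% of 7354 EVI1-bound sites, and dox replicate 2 had 72.7% and 85.3%. In the weakest group, dox peaks lay on 6.62% and 7.21% of 1012 EVI1-free sites and on 30.4% and 29.3% of 4131 EVI1-bound sites.

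The strongest sites by the lower of both untreated values lay near genes of many kinds, and most were intronic or intergenic. The strongest was chr1:58856669-58857009 in an intron of DAB1, an adaptor of reelin signalling, with fold enrichments of 10.3 and 11.7 in untreated replicates 1 and 2. It also had a MOLM1 peak of 9.57-fold, and the nearest EVI1 peak was 11808 bp away. The site chr22:37693434-37693982 in an intron of CYTH4, a cytohesin exchange factor of leukocytes, had 10.2 and 9.70 and no peak in the 4 other libraries. Here an EVI1 peak lay 696 bp and a dox CTBP2 peak 856 bp from the edge of the site.

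Near PDIA4, an endoplasmic reticulum disulfide isomerase, chr7:148659654-148660112 had 9.50 and 12, with a 4xPLASS replicate 2 peak of 4.82. The intronic site chr1:86907275-86907600 in CLCA2, a regulator of chloride channels, had 9.28 and 11.7 and a MOLM1 peak of 7.55. At chr5:108690497-108690843 in PJA2, a ubiquitin ligase, both libraries differed most among these 12 sites, with 8.27 and 13.5. Near S100A4, a calcium-binding protein, chr1:153523611-153523957 had 7.68 and 7.82, with peaks of 9.88 in MOLM1 and 4.62 in 4xPLASS replicate 2. The other strongest sites lay nearest to ADCK2, SSR1, FCN2, EPHB2, TXLNB and a gene known by the identifier ENSG00000188897 alone.

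In the 4 CTBP2 libraries that the rule did not use, few of these sites had a peak. A peak was called at 56 sites in unmodified MUTZ3 cells (3.67%, 95% Wilson interval 2.83 to 4.73), 281 in MOLM1 cells (18.4%, 16.5 to 20.4), 19 in 4xPLASS replicate 1 (1.24%, 0.798 to 1.94) and 130 in 4xPLASS replicate 2 (8.51%, 7.22 to 10.0). The intervals cover counting error only. Over all CTBP2 sites of untreated cells the shares were 31.2%, 61.9%, 13.7% and 52.2% in the same order. The 69 EVI1-free sites kept in both dox libraries had peaks at 24.6%, 52.2%, 13.0% and 37.7%, and the EVI1-bound lost sites at 11.1%, 50.6%, 2.46% and 30.9%.

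The EVI1-free lost sites were thus the lowest of these sets in each of the 4 libraries. The mean difference, EVI1-free lost minus EVI1-free kept, was -23.9 percentage points (SD 9.66, n = 4 libraries), with means of 7.96% and 31.9%. The kept sites were chosen by a CTBP2 peak in both dox libraries, so part of this difference may be fixed by the rule. They were also stronger, with median fold enrichments of 6.27 and 6.77 in untreated replicates 1 and 2. EVI1-free lost minus EVI1-bound lost was -15.8 points (SD 14.1, n = 4), with a mean of 23.8% for the EVI1-bound lost sites. These sites were chosen by an EVI1 peak in both untreated EVI1 libraries, and the EVI1-free lost sites by none. Part of this difference may thus be fixed by the rule too. Both differences had the same sign in 4 of 4 libraries, with p = 0.125 in an exact two-sided paired permutation test over libraries, which is the smallest p that 4 libraries can give. The design therefore cannot pass 0.05. Leaving out the libraries that defined the sites, in turn, kept both differences below 0, between -32.3 and -12.7 for the first and between -19.1 and -12 for the second.

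The lower share in MOLM1 was seen at each strength. Among the weakest sites, a MOLM1 peak lay on 18.6% of 897 EVI1-free lost sites and 46.1% of 2447 EVI1-bound lost sites. In the second-strongest group the values were 20.6% of 34 and 55.4% of 1882. The same order was seen in unmodified cells (3.12% and 8.42% in the weakest group, 8.82% and 14% in the second-strongest) and in 4xPLASS replicate 2 (6.80% and 23.8%, 17.6% and 38.0%). In 4xPLASS replicate 1 the order turned with strength, with 0.892% and 1.68% in the weakest group 3.5% of 143 and 2.55% in the middle group, and 8.82% of 34 and 3.51% in the second-strongest. With equal weight for each strength group that held sites of both sets, the mean difference to the EVI1-bound lost sites was -13.6 points and the exact paired p was 0.25. Weighted the same way, the mean difference to the EVI1-free kept sites was -18.1 points (exact paired p = 0.125).

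Of the 1527 sites, 1145 (75%) had no peak in any of these 4 libraries, 300 had a peak in 1, 63 in 2, 16 in 3 and 3 in all 4. MOLM1 alone accounted for 217 sites, a MUTZ3 library alone for 6.61% of the sites, and 64 sites had a peak in MOLM1 and in a MUTZ3 library. The MOLM1 share depended on the untreated libraries, at 22.6% without untreated CTBP2 replicate 1 and 6.79% without untreated CTBP2 replicate 2. Without the latter the unmodified share was 0.725%.

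Where MOLM1 had a peak, it was of middling rank. The median MOLM1 fold enrichment at the 281 sites was 6.26, against 6.66 over the whole MOLM1 list, and 124 of the 281 peaks (44.1%) ranked in the stronger 50% of the list. The highest was 18.8 (rank 3382 of 64569) at chr5:36373644-36373875, an intergenic site 71566 bp upstream of RANBP3L, which had 5.31 and 5.75 in the untreated MUTZ3 libraries. A site near FNDC3B (chr3:171702644-171703098) had 17.2 in MOLM1 and 6.18 and 5.03 in MUTZ3. A site in an intron of TMOD3, which caps actin filaments (chr15:52153975-52154328), had 14.8 in MOLM1 but 3.21 and 5.42 in MUTZ3. Another was at RAB14, a trafficking GTPase (chr9:123978420-123979015), with 13.9 in MOLM1 and 5.80 and 4.07 in MUTZ3. In untreated MUTZ3 replicate 1 these 4 sites were all below the all-site median of 8.06.

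The 3 sites with a peak in all 4 other libraries differed in strength. The site chr6:139617134-139617386, 4107 bp upstream of TXLNB (beta-taxilin), had 7.67 and 10.5 in untreated replicates 1 and 2. Its values in the other libraries were 9.92 in unmodified MUTZ3 (rank 1436 of 16836), 12.4 in MOLM1, 6.16 in 4xPLASS replicate 1 and 11 in 4xPLASS replicate 2. It thus had a CTBP2 peak in the 2 untreated inducible and the 4 other libraries examined and none in the 2 dox libraries, although an EVI1 peak lay 429 bp and a dox CTBP2 peak 502 bp away. The coding-exon site chr6:167752090-167752433 in TTLL2, a tubulin ligase-like gene, had 12 and 5.73 in the untreated libraries, 6.40 in unmodified cells, 5.03 in MOLM1, and 3.39 and 5.73 in the 4xPLASS replicates. The site chr17:49449663-49450284 near UTP18, a ribosome assembly factor, had 3.58 and 7.38 in the untreated libraries and 6.58, 5.28, 3.88 and 7.96 in the same order of libraries.

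The EVI1-free lost sites lay away from promoters. Of 1522 sites on chromosomes 1 to 22, X and Y, 62 (4.07%, 95% Wilson interval 3.19 to 5.19) had their summit within 1 kb of a protein-coding TSS, against 24.2% of all CTBP2 sites and 23% of the EVI1-bound lost sites. Of the EVI1-free kept sites 2.90% were this close, with a wide interval (0.799 to 9.97, n = 69). A further 438 sites (28.8%) lay 1 to 10 kb from a TSS, 600 (39.4%) 10 to 50 kb and 422 (27.7%) farther. Over all sites these shares were 20.2%, 30.5% and 25.1%. Only the class within 1 kb was thus the smaller at the EVI1-free lost sites. The median distance was 20315 bp, against 14271 bp over all sites. With the start of any protein-coding transcript counted, the shares were 7.10% for these sites and 31.4% for all sites. The gap was smaller with the 8 inducible lists cut to equal size (16.9% and 28.2%) and with summits within 200 bp (15.2% and 24.2%).

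**Figure D1:**
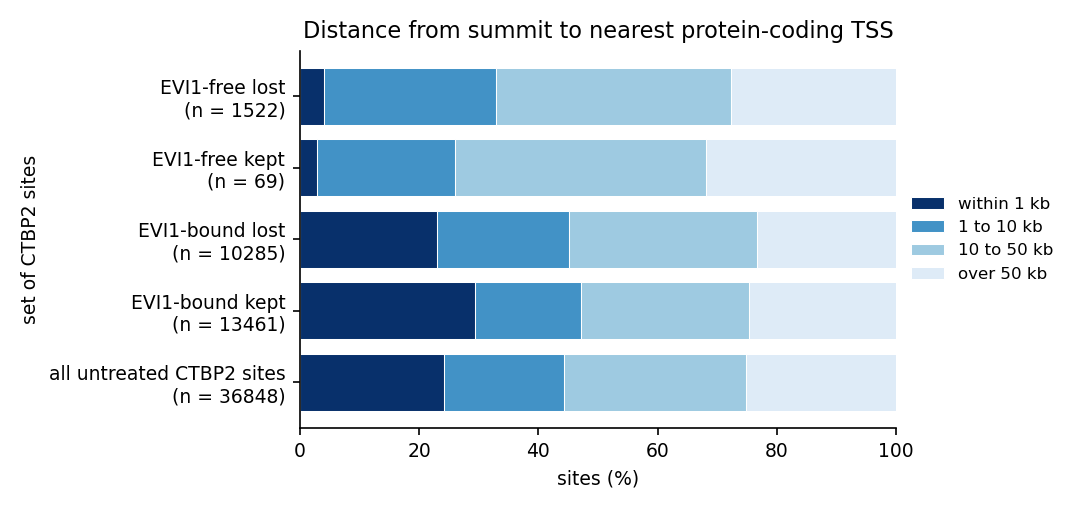
Distance from the CTBP2 summit to the nearest protein-coding TSS, as the share of sites (x axis, %) in 4 distance classes, for 5 sets of CTBP2 sites (y axis). The class within 1 kb makes up 4.07% of the EVI1-free lost sites, 23% of the EVI1-bound lost sites and 29.4% of the EVI1-bound kept sites.

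By annotation, 761 summits (50.0%) lay in introns, 680 (44.7%) between genes, 43 (2.83%) in UTRs and 38 (2.50%) in coding exons, against 41.6%, 43.4%, 10.6% and 4.46% over all sites. The difference from the EVI1-bound lost sites in promoter share was seen at each strength, with 3.69% against 15.5% in the weakest group and 8.45% against 26.7% in the middle group. Among the EVI1-free lost sites, a MOLM1 peak lay on 9.68% of the 62 sites within 1 kb of a TSS, 16.2% of those at 1 to 10 kb, 17.8% at 10 to 50 kb and 23% of the 422 farther away. The first share rests on 6 sites. MOLM1 shares by distance were not computed for other sets, so this order may not be particular to these sites. Every autosome held some of the sites, from 15 on chromosome 21 to 145 on chromosome 1. Chromosome 22 had 5.64 of these sites for every 100 CTBP2 sites and chromosome X had 2.57. The remaining 5 sites lay on unplaced or alternative sequences and were not annotated.

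The sites were scattered over many genes. They lay nearest to 1376 protein-coding genes, of which 1250 had 1 site, 109 had 2, 14 had 3 and 3 had 4. Only 55 sites (3.60%) had another within 5 kb. The genes with 4 sites were ADGRL1 (the adhesion receptor latrophilin 1), MAGEF1 and C8orf90. At ADGRL1 the sites ran from 11408 bp downstream to 40560 bp upstream of the TSS, with fold enrichments of 4.43 to 6.98 in replicate 1, and none had a peak in the 4 other libraries. The strongest of the C8orf90 sites, chr8:142952999-142954215, was 428666 bp from the TSS and had 10.8 and 5.45 in the untreated libraries, with peaks of 2.89 and 3.65 in the 4xPLASS libraries. Among the genes with 3 sites were ADCY4 (an adenylate cyclase), CRLF3, DCP1B (an mRNA decapping factor), JARID2 (a cofactor of Polycomb repressive complex), LMNB1 (lamin B1) and LZTS1. The 3 sites nearest to DCP1B lay in introns of CACNA1C, a calcium channel subunit, and the strongest of them had 10.4 and 6.58.

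CTBP partners and blood regulators were among the nearest genes, at about the rate given by the number of CTBP2 sites they had. Of 34 genes of the CTBP corepressor complex and its partners, 6 had a site: BCOR, EHMT1, IKZF1, KLF3, WIZ and ZNF217. Their 8 sites were 3.69% of the 217 CTBP2 sites nearest to listed genes, against 4.13% for all protein-coding genes. At KLF3, a CTBP-binding Krueppel-like factor, both sites were intronic, with 5.97 and 5.42 at chr4:38696693-38696989 and 3.43 and 5.42 at chr4:38674756-38675173. A site 76243 bp upstream of IKZF1, which encodes Ikaros (chr7:50267373-50267674), had 4.64 and 6.03, with peaks of 5.72 in unmodified cells and 9.46 in MOLM1. At BCOR, a corepressor, chrX:39441461-39441729 had 6.22 and 5.50 and a MOLM1 peak of 10.6. An intronic site of EHMT1, an H3K9 methyltransferase, had 3.42 and 3.87 and 8.72 in MOLM1.

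Of 44 blood transcription factors, 11 had a site (BCL11A, ERG, FLI1, FOS, IKZF1, IRF8, JUN, KLF2, KLF4, MYC and NFE2). The 17 sites were 5.20% of 327, and 5 had a MOLM1 peak. The strongest of these by the lower untreated value was 58541 bp downstream of the TSS of IRF8, a regulator of monocyte development (chr16:85991085-85991540), with 6.07 and 5.29 and a 4xPLASS replicate 2 peak of 4.42. At FLI1, an ETS factor, chr11:128553906-128554313 lay 2237 bp upstream of the TSS, with 5.28 and 5.37 and peaks of 6.26 in MOLM1 and 3.99 in 4xPLASS replicate 2. Both NFE2 sites were intronic and within 4 kb of the TSS, and a site 196576 bp from MYC had 6.76 and 4.72 with 11.6 in MOLM1. The highest MOLM1 value of the list was 13.7, 99467 bp upstream of JUN, where the untreated MUTZ3 values were 4.37 and 6.60.

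In the other lists the counts were small. Of 35 neutrophil and monocyte genes, 5 had 1 site each (CSF1R, CSF2RA, CSF3R, ITGAM and ITGB2), or 4.63% of 108, and none had a MOLM1 peak. Of 20 genes known as CTBP-repressed in epithelial and tumour cells, 3 had 4 sites in all, or 8.16% of 49. They were CDH1 (E-cadherin), with an intronic site of 5.29 and 5.48, and the apoptosis genes BIK (2 sites) and BMF. The CDH1 site and both BIK sites held the hexamer CACCTG, and the BMF site did not. Of all EVI1-free lost sites 47.0% held it, and 4 sites are too few to set against that share. Among 25 erythroid and megakaryocyte genes only HBA2, an alpha globin gene, had a site, or 2.50% of 40. For 508 zinc finger genes the 25 sites were 3.58% of 698, and for 82 cytosolic ribosomal protein genes the 7 sites were 4.43% of 158.

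Of the 20 motifs searched within 100 bp of the summit on both strands, the E-box hexamer CACCTG, which ZEB and Snail family repressors bind, stood furthest above the share in all sites among motifs found in over 1% of the sites. It was found at 715 of 1522 EVI1-free lost sites (47.0%, 95% Wilson interval 44.5 to 49.5), against 25.5% of all CTBP2 sites and 25.3% of the EVI1-bound lost sites. The EVI1-free kept sites had it at 39.1% (28.5 to 50.9, n = 69) and the EVI1-free sites with a peak in 1 dox library at 49.4% (42.2 to 56.7, n = 178). Here 19.3% of the EVI1-free lost sites had 2 or more matches, with the CYTH4 window printed above among them. The share was 5.97% over all sites and 4.70% at the EVI1-bound lost sites. At the EVI1-free kept sites it was 20.3%, and at those with a peak in 1 dox library 33.1%. Further, 50 EVI1-free lost sites had 4 or more, and the largest number in a window was 11. These higher counts were not set against other sets.

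The matches were most frequent at the summit, with 11 for every 100 sites in the 20 bp after the summit and 4.99 in the bin 80 to 100 bp before it. The other EVI1-free sites had higher values. The kept sites reached 21.7 in the 20 bp before the summit (n = 69). Those with a peak in 1 dox library reached 20.2 in the 20 bp after it (n = 178). In windows of the same size centred 400 bp to the left and right of the summit the share was 21.2% and 22.5%, close to the 21.5% and 20.3% beside the EVI1-bound lost sites. The gap to other sites was present at like base composition. Among windows of 45 to 55% GC the hexamer was at 48.5% of 955 EVI1-free lost sites, 24.8% of the EVI1-bound lost sites and 25.1% of all sites.

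**Figure D2:**
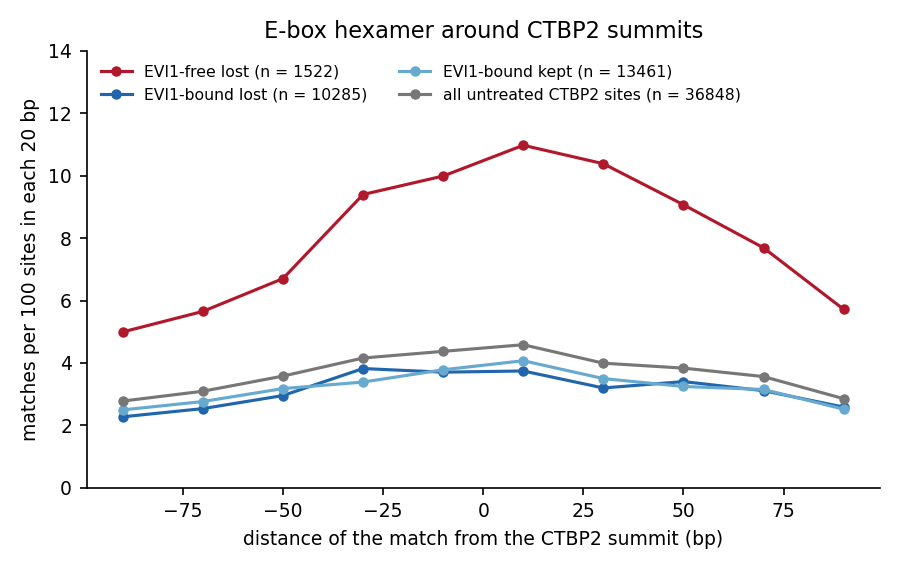
Matches to the E-box hexamer for every 100 sites in bins of 20 bp (y axis) by distance from the CTBP2 summit of untreated replicate 1 (x axis, bp). The EVI1-free lost sites reach 11 beside the summit, and all CTBP2 sites reach 4.58. The EVI1-free kept sites and those with a peak in 1 dox library (not shown) reach 21.7 and 20.2.

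By fold enrichment in untreated replicate 1, the hexamer was commoner in the second-strongest group than in the weakest. It was at 46.1% of the EVI1-free lost sites of the weakest group (95% Wilson interval 42.8 to 49.4) and 67.6% of the 34 in the second-strongest group (50.8 to 80.9), while all sites of these groups had it at 26.7% and 24.6%. By the lower of both untreated values the strongest sites did not show this, as 2 of the 12 named above (CYTH4 and ENSG00000188897) held it, and with a fold enrichment of at least 5 in every list the share was 39.4%. Sites with a MOLM1 peak had the hexamer less often. It was at 31.7% of the 281 sites with a MOLM1 peak (26.5 to 37.3) and 50.4% of those without (47.7 to 53.2). Sites with a peak in 4xPLASS replicate 2 had it at 32.3% (24.9 to 40.8, n = 130).

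This pattern differed between the libraries. Without untreated CTBP2 replicate 1 the share was 27.4%, against 21.7% of all sites so defined, and without untreated CTBP2 replicate 2 it was 46.9%, against 30.2%. In untreated replicate 1 alone, the hexamer was at 46.9% of 11345 peaks without any EVI1 peak and 26.4% of those with an EVI1 peak, and in untreated replicate 2 the shares were 26.5% of 10001 and 20.6%. In dox replicate 1 they were 30.6% and 20.1%, and in dox replicate 2 they were 17.4% and 18.0%. In the 4 libraries that the rule did not use, peaks without EVI1 had the hexamer less often than peaks with EVI1. All 5 EVI1 lists are of MUTZ3 cells, so MOLM1 peaks were sorted by EVI1 of another cell line, and EVI1 in MOLM1 was not analysed here. The shares were 12% and 17.9% in unmodified MUTZ3, 14.4% and 17.1% in MOLM1, 14.7% and 19.7% in 4xPLASS replicate 1, and 15.1% and 17% in 4xPLASS replicate 2. The mean difference, without EVI1 minus with EVI1, was -3.90 points (SD 1.92, n = 4 libraries, lower in 4 of 4), with p = 0.125 in the exact two-sided paired permutation test, the smallest it can give. Without MOLM1 it was -4.29 points (SD 2.14, n = 3, lower in 3 of 3, exact p = 0.25, the smallest that 3 libraries can give).

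GC content moved with this comparison. The median GC of peaks without EVI1 was 56.2% in untreated replicate 1, 47.8% in untreated replicate 2, 48.3% and 44.3% in dox replicates 1 and 2, and 43.3% to 45.8% in the 4 other libraries, while peaks with EVI1 had 54.2% to 58.2% in all 8. Within windows of 45 to 55% GC, the share without EVI1 exceeded that with EVI1 in all 4 inducible libraries (50.1% and 24.7%, 30.0% and 18.2%, 32.9% and 16.7%, 24.1% and 15.0% for untreated replicates 1 and 2 and dox replicates 1 and 2). In the other libraries the shares were 15.7% and 15.5% in unmodified cells, 17.2% and 14.8% in MOLM1, 15.6% and 15.9% in 4xPLASS replicate 1, and 17.9% and 14.7% in 4xPLASS replicate 2. At like GC the share without EVI1 was thus the lower in 4xPLASS replicate 1 alone. What sets the libraries apart was not tested.

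**Figure D3:**
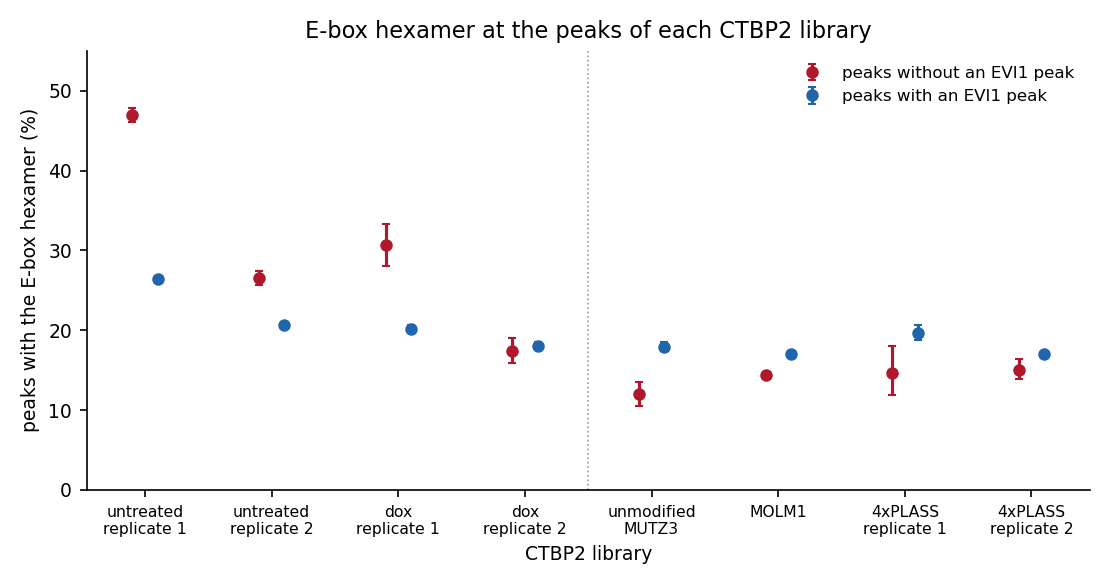
Share of CTBP2 peaks with the E-box hexamer within 100 bp of the summit (y axis, %) in each of 8 CTBP2 libraries (x axis), for peaks without and with an overlapping EVI1 peak of MUTZ3 cells, with 95% Wilson intervals. The libraries right of the dotted line were not used to choose the sites, and there the peaks without EVI1 have the lower share, in contrast to 46.9% and 26.4% in untreated replicate 1. Among windows of 45 to 55% GC (not shown), only 4xPLASS replicate 1 of these libraries kept the lower share without EVI1.

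Further hexamers were looked at after CACCTG had been seen. The related TACCTG was raised by a like ratio, at 15.5% of the EVI1-free lost sites and 7.99% of all sites, and it was at 17.4% of the EVI1-free kept sites and 16.9% of those with a peak in 1 dox library. CAAGTG was at 13.4% and 9.72%, whereas CAGCTG was at 11.6% and 16.6%, CACGTG at 3.42% and 4.65% and CATCTG at 13.5% and 15.3%. Motifs tied to promoters and to EVI1 were less frequent at the EVI1-free lost sites than over all sites, as they were at the other EVI1-free sites. GGGCGG, the GC box, was at 9.20% against 26.8% of all sites, with 7.25% of the EVI1-free kept sites and 5.06% of those with a peak in 1 dox library. Over 1 kb from a TSS it was at 8.63% against 17.7% of all sites. CCGGAAGT, an ETS site of promoters, was at 0.657% against 2.39%. The GATA factor hexamer AGATAA was at 2.83% against 5.75%, while ACAAGATA, the core of an EVI1 site, was at 0 of 1522 sites (3 counts of the total, the limit that a count of 0 allows, are 0.197%, and the Wilson upper limit is 0.252%) against 0.285%. GAAGATGAG, the other EVI1-type motif, was at 0.0657% against 0.399%. CCGGAAGT, ACAAGATA and GAAGATGAG were each at 0 of 69 EVI1-free kept sites and 0 of 178 with a peak in 1 dox library. AGATAA was at 4.35% and 2.81% of these sites. All EVI1-free sites were chosen by a lack of EVI1 peaks, so their low shares of EVI1 motifs are a description only. The RUNX-type TGTGGT (20.5% and 18.0%) and the AP-1-type TGANTCA (6.44% and 6.35%) were at like shares. The median GC of the windows was 53.2%, against 57.7% for all sites and 58.7% for the EVI1-bound lost sites, and the ratio of observed to expected CpG had a median of 0.261 against 0.372 for all sites. Both were lower still at the EVI1-free kept sites (50.7% and 0.224) and at those with a peak in 1 dox library (51.7% and 0.236). In the weakest group, the median GC was 53.2% for the EVI1-free lost sites and 53.7% for all sites. Repeat elements were not examined, since the reference used here does not mark them.

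Many EVI1-free lost sites had an EVI1 peak nearby. The median distance from the edge of a site to the nearest EVI1 peak of the 5 lists was 2450 bp, 495 sites (32.4%) were within 1 kb of one and 1236 (80.9%) within 10 kb. Of the 69 EVI1-free kept sites, 13.0% were within 1 kb and 65.2% within 10 kb, with a median of 4870 bp. To the nearest dox CTBP2 peak the median was 9770 bp, and 152 sites (9.95%) were within 1 kb. These distances cannot be set against those to EVI1, since the lists differ in number and size. The 5 EVI1 lists held 21505 to 72214 peaks each, and the 2 dox CTBP2 lists held 24588 and 23878. The sites just inside the limit of the rule were chr16:85381383-85382016 near GSE1, chr19:12662871-12663214 near ZNF564 and chr2:26402403-26403094 near GAREM2, which had 2, 5 and 6 bp to the nearest EVI1 peak. Just outside it, chr12:107715736-107716167 near ABTB3 overlapped a dox CTBP2 peak by 1 bp, and chr19:6724878-6725614 near C3 and chr2:232532459-232532823 near PTMA each overlapped an EVI1 peak by 5 bp. Few sites stood this close to the limit, as 5 were outside it by an overlap of 10 bp or less. When EVI1 peaks were widened by 500 bp on each side, 1211 sites were left, with the hexamer at 47.4% and a MOLM1 peak at 19.2%.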

How the data were processed

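ChIP-seq peak lists of 13 libraries were used. Per the labels, the authors aligned reads to hg19 with Bowtie 1.1.1 and called peaks in each library against its input with MACS2 2.1.2, at default parameters per the study's methods. The deposited fold enrichment is a ratio of signal at the summit to local background, while −log10 p and −log10 q values were deposited as the caller wrote them. Replicates were not pooled. Sequencing depth and the precision it gives are unknown from peak lists, and a site without a peak may be one below the caller's threshold.

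Sites, sets and overlaps (1 bp) were computed as described in the report. The set and the gene lists were chosen with earlier results of these data known. Shares carry 95% Wilson intervals. Differences over the 4 libraries that the rule did not use were tested by an exact two-sided paired permutation test. TSSs were those of 20176 protein-coding genes of GENCODE release 44 on GRCh37, whose chromosomes 1 to 22, X and Y match hg19. Windows of 201 bp around the summit of untreated replicate 1 were searched for 20 fixed motifs. The other E-box hexamers, the windows 400 bp away, the comparison of libraries by EVI1 overlap and the transcript starts were added after the data had been seen.

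Named sites were the 12 strongest by the lower untreated fold enrichment, the 5 strongest in MOLM1, those with a peak in all 4 unused libraries, sites of the genes with the most sites, sites of listed genes, and the 3 on each side of the limit. Sites of some genes that this rule names are not reported here. The procedure was tested on simulated lists, and overlaps were checked against bedtools 2.31.1. Computations were made in Python 3.11.15, with pysam 0.24.0 for sequences, scipy 1.17.1 for tests, pandas 2.3.3 and numpy 2.4.6 for tables, and matplotlib 3.10.9. The alternatives tried were stricter thresholds, other overlap rules, equal list sizes, other EVI1 lists, widened peaks, libraries left out in turn and pairing by replicate number.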

Additional observations from a re-analysis of the deposited data

How the results depend on the processing

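Both mean differences over the 4 unused libraries kept their sign under all 19 alternatives, between -33.2 and -12.7 points for the EVI1-free kept sites and between -20.7 and -12.0 for the EVI1-bound lost sites, and no design here can reach p below 0.125.
The number of sites ranged from 1616 to 11031 when libraries were left out, and it was 2681 with summits within 200 bp and 444 with the 8 inducible lists cut to equal size. Leaving out an untreated CTBP2, dox CTBP2 or EVI1 library drops a condition of the rule, so the number could only rise. With equal list sizes, 15409 CTBP2 sites of untreated cells were left to choose from. The cause of the change with summits within 200 bp was not tested.
With equal list sizes, the share with a MOLM1 peak was 39.2%, with an unmodified MUTZ3 peak 10.8% and with a 4xPLASS peak 15.1% on average. The share within 1 kb of a TSS was then 16.9% (28.2% of all sites so defined). With CACCTG it was 40.2% (23.8% of all sites so defined), at a median GC of 57.2%.
With a fold enrichment of at least 5 in every list, the MOLM1 share was 22%, the unmodified share 5.85%, the TSS share 7.39% (25.6% of all sites so defined), the CACCTG share 39.4% and the median GC 54.2%.
With −log10 q of at least 5, the MOLM1 share was 21.7% and the CACCTG share 43.0% (24.4% of all sites so defined). MOLM1 shares over all sites were not computed for the alternatives of this section.
With summits within 200 bp, the TSS share was 15.2% (24.2% of all sites), the CACCTG share 41.5% (25.5% of all sites) and the median GC 54.7%.
With EVI1 taken from the 2 untreated inducible lists alone, the MOLM1 share was 20.7% and the CACCTG share 43.9% (25.5% of all sites).
With EVI1 peaks widened by 500 bp, the TSS share was 2.49% (24.2% of all sites).
The TSS share was 2.23% within 500 bp, 19.9% within 5 kb and 7.10% for any transcript start. Over all sites these shares were 20.1%, 35.7% and 31.4%.
With 50 bp on each side of the summit the median GC was 54.5% and the CACCTG share 33.4%. The CACCTG share over all sites was not computed for this window. Over the whole site the median GC was 51.8%.
When libraries were left out in turn, the ranges were 6.79% to 22.6% for MOLM1, 0.725% to 4.76% for unmodified MUTZ3, 1.11% to 8.51% for 4xPLASS, 3.07% to 6.92% for the TSS share, 48.3% to 56.2% for median GC and 27.4% to 47.2% for CACCTG. The lowest CACCTG share came without untreated CTBP2 replicate 1, and the lowest MOLM1 share without untreated CTBP2 replicate 2.

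Replicate numbers of untreated and dox libraries are shared by label alone. Over 14297 sites with a peak in all 4 inducible CTBP2 libraries, the log2 differences between replicates 1 and 2 had a Pearson's r of 0.21 between treatments. With the replicate block, in which loss was judged by number, there were 1529 sites, 18.4% with a MOLM1 peak, 3.66% with an unmodified peak, 4.87% with a 4xPLASS peak, 4.13% within 1 kb of a TSS, 47.0% with CACCTG and a median GC of 53.2%, and the mean differences were -22.9 and -15.8 points, so no call changed.

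The lists hold no depth, so a site without a peak cannot be told apart from a weak site in a shallow library. Most of the EVI1-free lost sites are weak, and most were absent from the other libraries.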
